A study of Mus musculus with 13 samples.

Results

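The 6 libraries of the ventral tegmental area (VTA) that carried the Setd7 virus, out of 13 in the series, were selected on their measured Setd7 value. The 3 libraries with 100000 normalized counts of Setd7 or more are called high, and the 3 below that value are called lower. A normalized count is the number of reads of a gene divided by a scaling factor of its library. Genes were then ranked by their correlation with log2 Setd7 over the same 6 libraries. Because Setd7 chose the libraries and ranked the genes, every difference between high and lower libraries and every such correlation is a description, without a test.

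Tissue punches of the VTA, the midbrain region with the dopamine neurons of the reward system, came from C57BlJ/6 mice of both sexes. A virus was given at postnatal day 14, and it carried either Setd7 or green fluorescent protein (GFP). Punches were taken from adults, some of them after social defeat, a stress in which a mouse is exposed to an aggressor. The groups were Setd7 control without defeat (n = 4), Setd7 with defeat (n = 2), GFP control without defeat (n = 3) and GFP with defeat (n = 4). The virus type, its promoter and the cell types it reached are not given in the sources used here, so viral and native Setd7 reads were counted together. The high set held Setd7 control 1 and 2 (female) and Setd7 defeat 2 (male). The lower set held Setd7 defeat 1 (female) and Setd7 control 3 and 4 (male). Each set thus held 2 control libraries and 1 defeat library. Among the 4 control libraries, however, both high ones were female and both lower ones male, so Setd7 level and sex cannot be told apart there. The column of Setd7 defeat 1 carries more digits than the animal number in its label, and whether it holds 1 animal was not settled. Nothing in the labels says more about how replicates were made, so p-values measure the spread between these libraries.

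SETD7 (SET7/9) adds a single methyl group to lysine residues, among them lysine 4 of histone H3 and lysines of several transcription factors. Interferon response genes, which appear prominently below, are switched on when interferons bind their receptors and transcription factors such as IRF9 enter the nucleus. That response also raises the machinery of antigen presentation, in which class I molecules of the major histocompatibility complex (MHC) display peptides to T cells. In a healthy brain these genes are low and microglia carry much of their expression.

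Setd7 itself held 158681 normalized counts in Setd7 control 1, 140236 in Setd7 control 2 and 123133 in Setd7 defeat 2. It held 92287.5 in Setd7 defeat 1, 81302.4 in Setd7 control 3 and 28586.8 in Setd7 control 4. The libraries next to the threshold were thus Setd7 defeat 2 inside it and Setd7 defeat 1 outside it. The high mean was 140683 ± 17778 (SD, n = 3) and the lower mean 67392 ± 34052 (SD, n = 3). In the 7 GFP libraries Setd7 ranged from 10887.9 to 14537.6, with a mean of 13196.5 ± 1182.8 (SD, n = 7). All 6 Setd7 libraries lay above every GFP library. The high mean was 10.7-fold the GFP mean, and Setd7 control 4 held 2.17-fold. Setd7 took 0.0787% to 0.430% of reads in the 6 libraries, whose depth was 31.2 to 48.4 mega-reads. Setd7 control 4 stood well apart from the other 5.

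**Figure D1:**
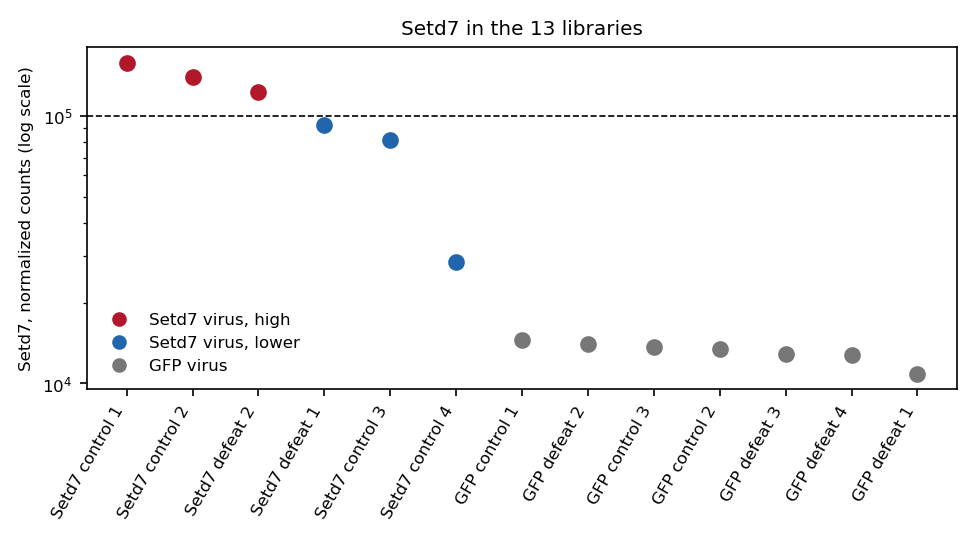
Normalized counts of Setd7 (log axis) in each of the 13 libraries, ordered by value within virus. Each point is 1 library, and the dashed line is the threshold of 100000. Setd7 control 4, at 28586.8, lies nearer to the GFP libraries than to the other Setd7 libraries.

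Because the interferon response list had the lowest median difference between high and lower libraries, promoters were searched for the core of the interferon-stimulated response element, the site bound by IRF factors. The letters searched were GAAANNGAAA on both strands, in windows from 250 bases before to 50 bases after each gene start (RefSeq, GRCm38.p6). In the stretches shown, all before the gene start and read 5′ to 3′ on the strand of the gene, capitals mark each match. Matches on the opposite strand read as the reverse complement, and neighbouring matches can overlap.
Irgm1, chr11:48871421-48871490: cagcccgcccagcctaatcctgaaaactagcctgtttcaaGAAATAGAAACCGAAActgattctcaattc
Ifit1, chr19:34640745-34640834: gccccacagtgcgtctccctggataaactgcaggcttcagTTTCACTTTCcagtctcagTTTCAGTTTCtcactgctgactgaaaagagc
Gbp3, chr3:142559959-142560043: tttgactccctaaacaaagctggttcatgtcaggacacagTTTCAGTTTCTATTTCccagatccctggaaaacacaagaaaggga
H2-T23, chr17:36032776-36032865: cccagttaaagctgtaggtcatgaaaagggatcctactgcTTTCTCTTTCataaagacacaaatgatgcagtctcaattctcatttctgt
Irgm1, Gbp3 and Ifit1 represent the interferon list, and H2-T23, a non-classical class I gene, the MHC class I list. Of 13785 genes tested whose promoter was matched, 502 (3.64%) held the letters. Of the 181 matched genes with a correlation of -0.9 or less with Setd7, 28 (15.5%) held them, against 3 of 88 (3.41%) with 0.9 or more. Genes at -0.9 or less, matched or not, include 19 members of the interferon list and 12 of the MHC class I list. Their share therefore overlaps with those of the lists, and nothing is read from the contrast. The letters were in 19 of 29 matched promoters of the interferon list (65.5%), 5 of 19 of the MHC class I list (26.3%) and 1 of 9 of the MHC class II list. A match is a description of these letters, not a bound site.

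Over the 6 libraries 230 genes had a Pearson r of -0.9 or less with log2 Setd7 (1.3% of 17754 genes) and 113 had 0.9 or more (0.636%). These counts come from the ranking itself, so nothing is read from their size. In all 230 Setd7 control 4 was the highest of the 6 libraries, and in all 113 it was the lowest. When Setd7 control 4 was left out, 32 of the 230 and 25 of the 113 stayed past the same threshold. Leaving out any 1 of the 6 libraries gave 335 to 634 genes at -0.9 or less and 264 to 356 at 0.9 or more, since 5 points reach such values more readily than 6. The genes that ran against Setd7 also differed more: the median log2 difference, high minus lower, was -0.49 over the 230 and 0.19 over the 113. Past 1.5-fold were 99 of the 230 and 16 of the 113.

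Irf9, a DNA-binding factor of the interferon response, was among the genes with the lowest r. It held 311, 318 and 366 normalized counts in Setd7 control 1, Setd7 control 2 and Setd7 defeat 2, and 541, 460 and 1215 in Setd7 defeat 1, Setd7 control 3 and Setd7 control 4. Values of other genes follow in this same order, from most to least Setd7. The high and lower libraries did not overlap, and the lowest-Setd7 library had the most Irf9. Pearson r was -0.985 and Spearman rho -0.943. Without the 2 libraries farthest from the median Setd7, r was -0.881, and without Setd7 control 4 it was -0.912.

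Lck, the kinase that starts T cell receptor signalling, held 33.8, 33.4 and 42.2 in the high libraries and 44.1, 53.9 and 138 in Setd7 defeat 1, Setd7 control 3 and Setd7 control 4. Its r was -0.989, -0.922 without the 2 farthest libraries and -0.940 without Setd7 control 4. Sting1, a sensor adaptor of cytosolic DNA, held 74.2, 89.8 and 77.4 in Setd7 control 1, Setd7 control 2 and Setd7 defeat 2. It held 124, 114 and 342 in Setd7 defeat 1, Setd7 control 3 and Setd7 control 4. H2-DMa, which loads peptide on class II molecules, ranged from 223 to 242 in the high libraries and from 297 to 613 in the lower ones. Hk3, a hexokinase of myeloid cells, ranged from 26.2 to 34.0 against 42.1 to 220. In each of these 4 genes the sets did not overlap and Setd7 control 4 was highest.

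The other genes of the lowest 10 by r were Lor, Nfya, Tbc1d20, Rreb1 and Spint1. Rreb1, a zinc finger transcription factor, held 1957 to 2043 in the high libraries and 2634 to 4096 in the lower ones. Nfya, the DNA-binding subunit of the CCAAT-box factor NF-Y, varied within a narrow range, from 688 to 692 in the high libraries and from 716 to 833 in the lower ones. Lor and Tbc1d20 likewise differed little, by -0.16 and -0.15 on the log2 scale.

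At the other end of the ranking the differences were small. Vps36, an ESCRT-II subunit that sorts membrane proteins for degradation, had the highest r, 0.996. It held 663, 649 and 618 in the high libraries and 586, 584 and 475 in the lower ones, in the same order as Setd7 throughout (rho = 1). Its log2 difference was 0.24, and r was 0.966 without the 2 farthest libraries and 0.979 without Setd7 control 4. Vps36 in the GFP libraries spanned 513 to 652, a range that held 4 of the 6 values.

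Mfsd2a, the lipid transporter of brain endothelium, and Adm, a vasodilator peptide, also followed Setd7 in rank. Mfsd2a held 1385, 1359 and 1165 in the high libraries and 1111, 1060 and 853 in the lower ones. Adm held 122, 114 and 111 against 101, 85.2 and 69.3. The remaining genes of the highest 10 were Nr2f1, Brd1, Fnta, Dlst, Spata9, Ociad1 and Crim1, with log2 differences of 0.064 to 0.27. Brd1, a scaffold of histone acetyltransferase complexes, held 2377 to 2409 in the high libraries and 2194 to 2345 in the lower ones.

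**Figure D2:**
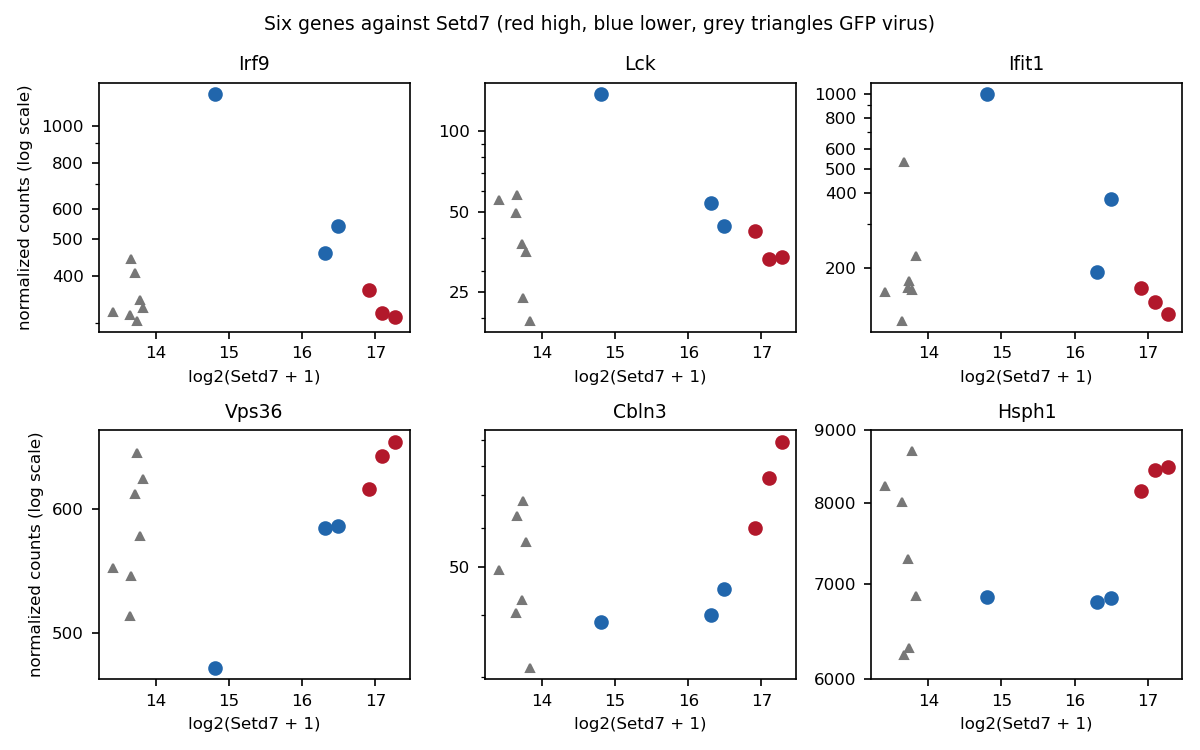
Normalized counts (log axes with a different range per gene) of 6 genes against log2 Setd7, 1 point per library: red high, blue lower, grey triangles GFP. Irf9, Lck and Ifit1 are highest in Setd7 control 4, while Vps36, Cbln3 and Hsph1 are higher in the 3 high libraries.

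Among all 17754 genes, the high libraries lay above every lower library for 1402 (7.9%) and below every lower library for 1299 (7.32%). With a difference of at least 1.5-fold as well, 118 genes were higher in the high libraries (0.665%) and 307 lower (1.73%). The median log2 difference over all genes was -0.0074. Setd7 control 4 was the highest library for 137 of the 307. Genes that separate stay apart when 1 library is left out, so only the fold could change. Without Setd7 control 4, 261 of the 307 and 110 of the 118 stayed past 1.5-fold. Leaving out any 1 library raised the counts to 223 to 285 higher and 494 to 813 lower, as fewer libraries have to separate. Without regard to overlap, 454 genes were at least 1.5-fold higher and 1195 at least 1.5-fold lower.

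The interferon response list had the lowest median of the 33 lists examined. All 41 members were tested, and all 41 were lower on average in the high libraries, with a median log2 difference of -1.15 and a median r of -0.883. At least 1.5-fold lower were 34, beside 1195 of all 17754 genes. Without overlap 9 separated, beside 7.32% of all genes that separated lower. All 41 were highest in Setd7 control 4. For this and the lists below, that count was not made over all genes, so its size is not read. Without Setd7 control 4 the median log2 difference was -0.44 and the median r -0.467. Without Setd7 control 4 and Setd7 defeat 1 together it was -0.0048.

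Among the regulators, Irf7, the factor that amplifies type I interferon, held 92.8, 85.3 and 84.4 in the high libraries and 199, 82.0 and 775 in Setd7 defeat 1, Setd7 control 3 and Setd7 control 4. Setd7 control 3 was thus as low as the high libraries. Irf1, itself an interferon-induced factor, held 162, 139 and 181 against 191, 197 and 807, without overlap.

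Among the effectors, Ifit1, which binds uncapped viral RNA, held 131, 145 and 165 in the high libraries and 378, 192 and 994 in the lower ones. Its log2 difference was -1.50, without overlap between the sets. Isg15, a ubiquitin-like modifier, held 27.3, 31.2 and 17.6 against 69.2, 39.9 and 122. Igtp, Irgm1 and Gbp3, which encode interferon-induced GTPases, were highest in Setd7 control 4 and next highest in Setd7 defeat 1. Igtp held 123, 143 and 278 in the high libraries and 527, 182 and 5111 in Setd7 defeat 1, Setd7 control 3 and Setd7 control 4. Irgm1 held 285, 387 and 454 against 666, 444 and 4241. Gbp3 held 102, 128 and 159 against 252, 153 and 1127. In these 3 genes Setd7 control 3 lay among the high libraries. Ifit3 and Ifit3b, and several Gbp and H2-Q genes, are close copies, so their reads may have been split between them.

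Cxcl9 and Cxcl10, chemokines that attract T cells, were low in all but Setd7 control 4. Cxcl9 held 0, 0 and 29.3 in Setd7 control 1, Setd7 control 2 and Setd7 defeat 2, and 41.1, 0 and 769 in Setd7 defeat 1, Setd7 control 3 and Setd7 control 4. Cxcl10 held 0, 5.19 and 8.21 against 27.1, 4.31 and 291. The sets overlapped for both.

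The MHC class I list had 22 tested members out of 23, with a median log2 difference of -0.71 and a median r of -0.910. Lower in the high libraries were 19, of which 13 by at least 1.5-fold, beside 1195 of all 17754 genes. Without overlap 3 separated (7.32% of all genes separated lower). H2-K1, a classical class I heavy chain, held 622, 579 and 950 in the high libraries and 1397, 538 and 5548 in the lower ones. Tap1, the peptide transporter, held 115, 122 and 151 against 289, 142 and 1742. Nlrc5, the transactivator of class I genes, held 59.0, 32.6 and 68.0 against 119, 59.3 and 1320. Psmb8, an immunoproteasome subunit, held 48.0, 35.6 and 69.2 against 124, 49.6 and 622.

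The 3 exceptions were the endoplasmic reticulum chaperones Calr, Canx and Pdia3, which serve folding in general and were higher on average in the high libraries. Calr held 9679, 9856 and 9543 against 8749, 7461 and 8132, without overlap. Without Setd7 control 4 the median log2 difference of the class I list was -0.29 and its median r -0.415, and without Setd7 defeat 1 as well it was 0.052.

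MHC class II genes, which antigen-presenting cells use, were lower on average in the high libraries for all 12 members, with a median log2 difference of -0.84. All 12 were highest in Setd7 control 4, and 1 separated without overlap (H2-DMa), beside 7.32% of all genes that separated lower. Cd74, the invariant chain, held 71.0, 114 and 623 in the high libraries and 902, 86.3 and 8725 in the lower ones. H2-Aa held 13.1, 42.3 and 144 against 288, 10.8 and 2351. Setd7 defeat 2 among the high libraries and Setd7 defeat 1 among the lower ones thus held intermediate levels, and Setd7 control 3 was as low as the high control libraries. Without Setd7 control 4 the median was -0.32.

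The summed markers of lymphocytes and of microglia were also highest in Setd7 control 4. In bulk tissue, fewer cells of a type and less RNA per cell cannot be told apart. Of 29 lymphocyte markers 25 were in the table and 13 passed the filter on low values. A marker that passed through Setd7 control 4 had to differ, so the median log2 difference of the 13, -0.87, describes these alone. It was -0.20 without Setd7 control 4. Cd3e, part of the T cell receptor complex, held 0, 2.23 and 11.7 in the high libraries and 6.02, 2.16 and 76.5 in the lower ones. Cd8a held 5.46, 8.90 and 8.21 against 4.01, 6.47 and 95.8. Summed over the tested members the lymphocyte markers gave 182 to 257 normalized counts in the high libraries, 175 to 279 in the GFP libraries, 208 in Setd7 defeat 1, 290 in Setd7 control 3 and 916 in Setd7 control 4.

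The 22 microglia markers had a median log2 difference of -0.32, and -0.038 without Setd7 control 4. C1qa, a complement subunit made by microglia, held 839, 1145 and 886 against 1472, 674 and 3340. Tmem119, a marker of resident microglia, held 601, 789 and 650 against 964, 584 and 1443. The summed microglia markers were 18977 to 24612 in the high libraries, 17125 to 23387 in the GFP libraries and 16810 to 46479 in the lower ones. In 21 of 22 Setd7 control 4 was highest. Of 18 markers of blood-derived myeloid cells 14 were tested, with a median of -0.085 and 6 higher on average in the high libraries. The part of these cells in the interferon and MHC values was not tested.

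Set against the GFP libraries, few interferon genes of the high libraries lay above the GFP range. In Setd7 control 1 and Setd7 control 2, 0 of 41 interferon members lay above all 7 GFP libraries, while 10.5% and 11.8% of all genes did. In Setd7 defeat 2, 5 of 41 did (12.1% of all genes), and in Setd7 control 3, 1 of 41 (9.16%). In Setd7 control 4, 40 of 41 lay above all 7 GFP libraries (12% of all genes), and in Setd7 defeat 1, 20 of 41 (15%). For MHC class I the counts were 19 of 22 in Setd7 control 4, 15 in Setd7 defeat 1, 6 in Setd7 defeat 2, 5 in Setd7 control 2, 2 in Setd7 control 1 and 0 in Setd7 control 3. Below all 7 GFP libraries lay 8 of 41 interferon genes in Setd7 control 1 (10.1% of all genes), 5 in Setd7 control 2 (9.56%) and 3 in Setd7 defeat 2 (10.5%). There were 4 in Setd7 control 3 (8.89%), 0 in Setd7 control 4 (8.85%) and 0 in Setd7 defeat 1 (12.8%).

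The mean log2 level of the interferon list was 6.35, 6.38 and 6.80 in the high libraries, 7.63, 6.40 and 9.40 in Setd7 defeat 1, Setd7 control 3 and Setd7 control 4, and 6.29 to 7.47 in the GFP libraries. The lower set therefore did not share 1 pattern. Setd7 control 4 stood far above, Setd7 defeat 1 slightly above and Setd7 control 3 within the GFP range. One GFP library, GFP defeat 3, gave the top of that range, and the next highest GFP library was at 6.79.

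**Figure D3:**
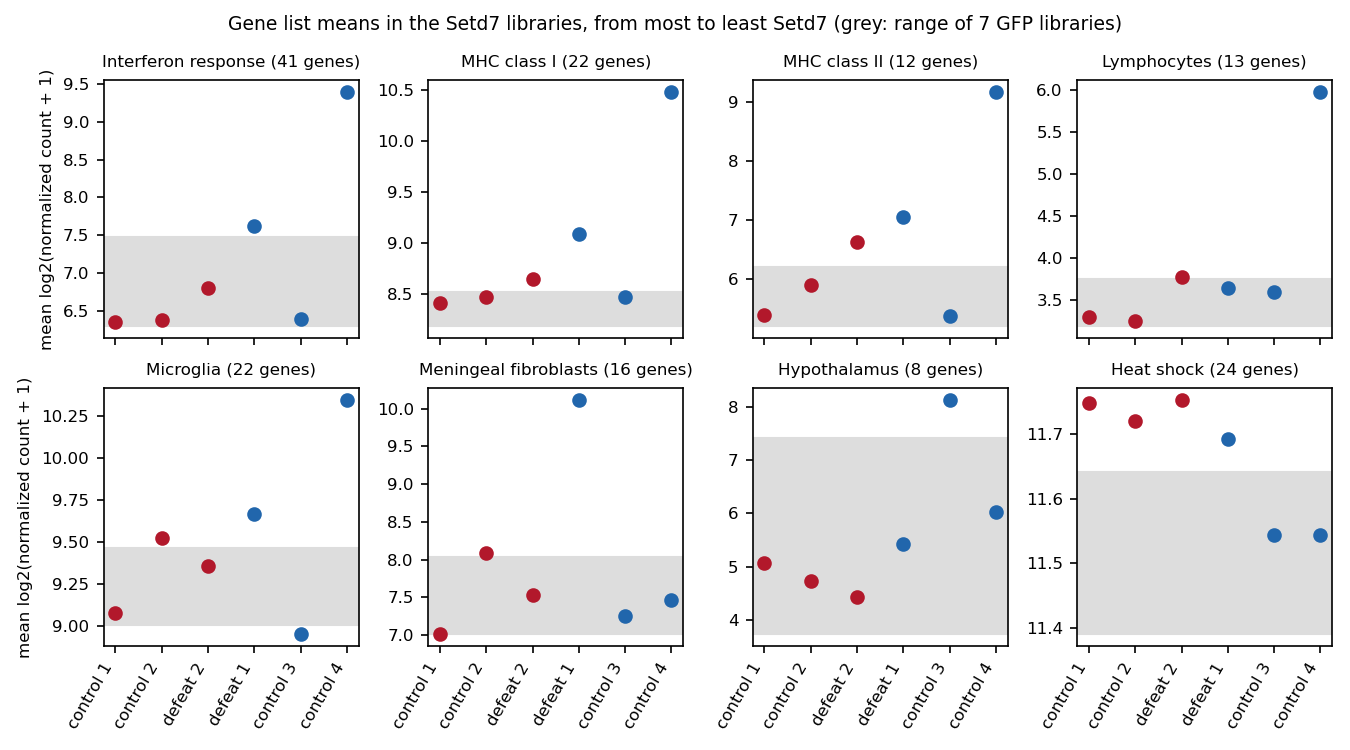
Mean log2(normalized count + 1) of 8 gene lists in the 6 Setd7 libraries, ordered from most to least Setd7 (red high, blue lower), with the range of the 7 GFP libraries in grey. Axes differ between panels. Setd7 control 4 is highest for the 5 immune lists, Setd7 defeat 1 for meningeal fibroblasts and Setd7 control 3 for hypothalamus.

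Each of the other 2 lower libraries was highest for another gene group. Setd7 defeat 1 also had many immune genes above all 7 GFP libraries, where 15% of all genes lay. Among them were 20 of 41 interferon, 9 of 12 MHC class II and 17 of 22 microglia members. The high library Setd7 control 2 had 13 of 22 microglia members there (11.8% of all genes), with 0 of 41 interferon and 2 of 12 MHC class II members. Meningeal fibroblast genes, which mark the membranes around the brain, were highest in Setd7 defeat 1. There 16 of 16 lay above all 7 GFP libraries (15% of all genes). In the high library Setd7 control 2, 9 of 16 did (11.8% of all genes). Slc13a4, a sulfate transporter of meninges and choroid plexus, held 45.9, 185 and 106 in the high libraries and 1512, 56.1 and 80.5 in Setd7 defeat 1, Setd7 control 3 and Setd7 control 4. Fn1, which encodes fibronectin, held 2569, 2914 and 2876 against 8241, 2801 and 2983. The median log2 difference of the 16 genes was -0.74, and 0.20 without Setd7 defeat 1. Their median r with Setd7 was 0.017 (-0.384 without Setd7 control 4), and Setd7 control 4 did not share their high level.

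Hypothalamic genes were highest in Setd7 control 3, where 6 of the 8 tested members lay above all 7 GFP libraries (9.16% of all genes). Hcrt, the orexin precursor, held 4.37, 0 and 1.17 in the high libraries and 31.1, 2251 and 261 in the lower ones. Pmch, the melanin-concentrating hormone precursor, held 56.8, 51.2 and 22.3 against 41.1, 1428 and 243. Both peptides are made by neurons of the lateral hypothalamus. Among GFP libraries Hcrt reached 968 in GFP defeat 1 and 546 in GFP control 1, and at most 17.7 in the others. The median log2 difference of this list was -1.14, and -0.43 without Setd7 control 3.

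Besides Hcrt and Ifit1, the genes with the largest differences below zero among those that separated were Ifi27l2a, Tac2, Slc15a3, H2-Q5, Ifi209, Capn11, Lag3 and Ltbp2. Ifi27l2a, an interferon-induced mitochondrial protein, held 10.9, 7.42 and 17.6 in the high libraries and 75.2, 20.5 and 132 in the lower ones. Lag3, an inhibitory receptor of T cells that brain cells also express, held 103, 111 and 92.6 against 188, 156 and 885. Tac2, the neurokinin B precursor, held 8.21 to 17.8 against 23.1, 218 and 23.4, so its difference came mainly from Setd7 control 3. Capn11, a calpain protease, held 12.6 to 29.3 against 47.1 to 80.9, while 1 GFP library reached 196.

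Among genes higher in the high libraries, Chat, the enzyme of acetylcholine synthesis, differed most. It held 78.6, 243 and 147 in the high libraries and 33.1, 19.4 and 63.2 in the lower ones, without overlap. GFP libraries spanned 16.2 to 171 for Chat, a range that held all of these values but the 243 of Setd7 control 2. Cbln3, a secreted synaptic organizer of the cerebellin family, held 89.5, 75.7 and 59.8 against 45.1, 39.9 and 38.7. It followed the rank of Setd7 in all 6 libraries, with r at 0.801, and 0.993 without Setd7 control 4. Neurod6, a transcription factor of excitatory neurons, held 189, 230 and 310 against 147, 168 and 105. Sgo2a, which protects centromeric cohesion, held 77.2 to 93.8 against 27.1 to 55.1.

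The other genes of that list were Abca13, Slc7a15, Cdr1, Mterf1b, Fgf5 and Apoc1, with log2 differences of 0.76 to 1.13. Cdr1 held 22748, 24868 and 24152 in the high libraries and 9000, 14466 and 18940 in the lower ones. Strand-specific counting is not given in the sources used here, so reads of Cdr1 and of its antisense transcript cannot be told apart.

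Heat shock genes, which encode chaperones that keep proteins folded, were slightly higher in the high libraries. Of 24 members 23 had a difference above zero, with a median of 0.12 and a median r of 0.660 (0.521 without Setd7 control 4). None reached 1.5-fold, and 6 separated without overlap, beside 7.9% of all genes that separated higher: Hsp90aa1, Hsph1, Hspa4l, Cryab, Stip1 and Cct5. Hsph1, an HSP110 chaperone, held 8481, 8429 and 8154 in the high libraries and 6848, 6800 and 6863 in the lower ones. Cryab, a small heat shock protein abundant in oligodendrocytes, held 4114, 5177 and 4656 against 3786, 2710 and 3593. Hsp90aa1, the inducible HSP90, held 14408, 14405 and 13036 against 12655, 11944 and 11844.5. The median changed little without any 1 library, from 0.10 to 0.14.

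In the GFP libraries Hsph1 spanned 6237 to 8696, which holds all 6 values, while Cryab reached 3687 at most, below the 3 high libraries. The mean log2 level of the list was 11.72 to 11.75 in the high libraries, 11.54 to 11.69 in the lower ones and 11.39 to 11.64 in the GFP libraries. The core heat shock element, searched as GAANNTTCNNGAA on both strands, was in 3 of 19 matched promoters of this list (15.8%) and in 0.617% of all matched genes tested. One stretch holds 2 overlapping matches between the start sites of Hspd1 and Hspe1, which encode the mitochondrial chaperonin pair, shown on the strand of Hspd1.
Hspd1, chr1:55088024-55088116: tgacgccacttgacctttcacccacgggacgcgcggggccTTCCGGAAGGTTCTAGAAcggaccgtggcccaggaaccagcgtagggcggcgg
Hspd1 held 2613, 2428 and 2553 against 2296, 2492 and 2316 and did not separate.

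Oligodendrocyte genes had a median log2 difference of 0.15, with 6 of 20 separating, all higher in the high libraries (7.9% of all genes). Mobp, a myelin protein, held 60083, 59407 and 65395 in the high libraries and 54942, 54439.7 and 52343 in the lower ones. Neuron-wide markers had a median of 0.11, with 5 of 19 separating higher (7.9% of all genes) and 1 lower (7.32%). Dopamine neuron genes were present in all 6 libraries, and 21 of 28 were highest in Setd7 control 4. Th, the rate-limiting enzyme of dopamine synthesis, held 13299.5, 9801 and 10751 in the high libraries and 11999, 10728 and 19110.5 in the lower ones. Slc6a3, the dopamine transporter, held 27847, 21718 and 21894.5 against 27777, 21452 and 45560.4. The sets overlapped for both, and the median difference over the list was -0.11, or 0.050 without Setd7 control 4.

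**Figure D4:**
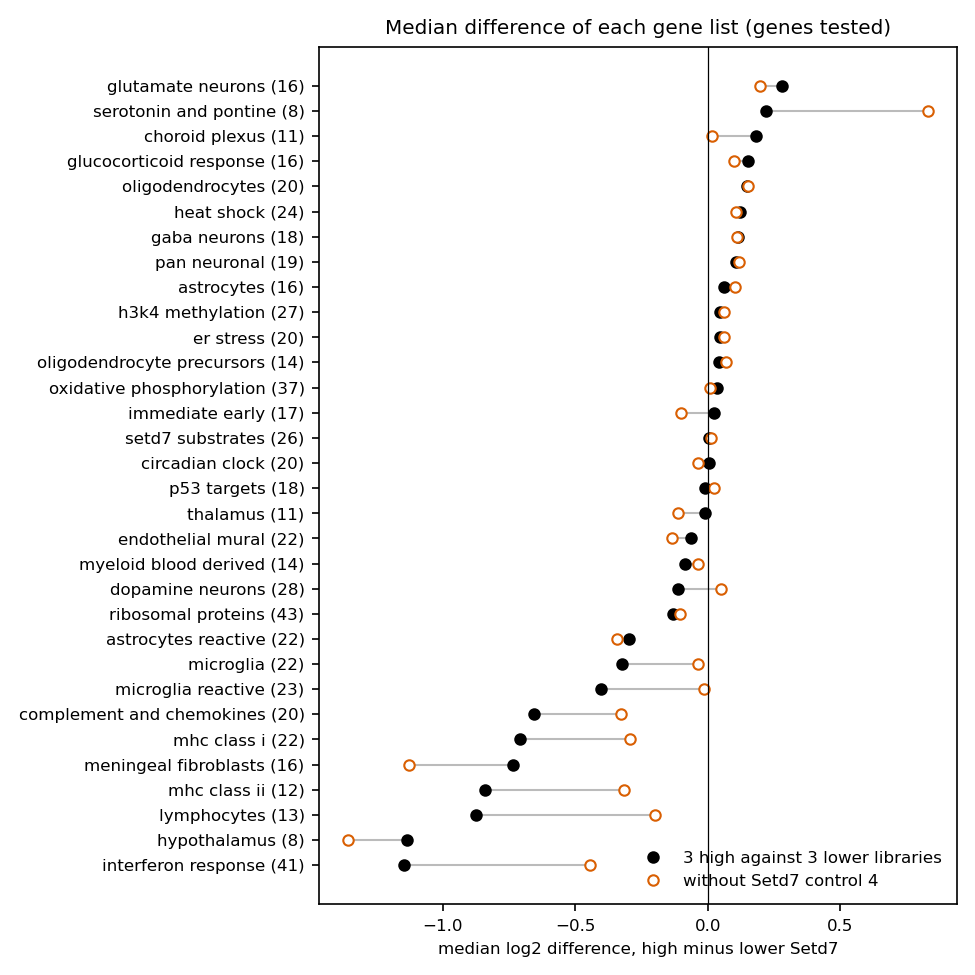
Median log2 difference, high minus lower Setd7, of 32 gene lists, with all 6 libraries (black) and without Setd7 control 4 (open orange). The number of genes tested is in brackets. Interferon response is lowest, at -1.15, and moves to -0.44 without that library, while hypothalamus and meningeal fibroblasts move away from zero and heat shock stays at 0.11 to 0.12.

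Genes tied to the enzyme itself differed little. Of 26 tested genes whose proteins have been reported or proposed as SETD7 substrates, the median log2 difference was 0.0061, with 1 higher and 3 lower without overlap. Over all genes 7.9% separated higher and 7.32% lower, so nothing is read from these counts. Irf1, a member of the interferon list as well, had the largest difference, -0.97. Trp53, which encodes p53, held 328, 339 and 400 in the high libraries and 283, 262 and 303 in the lower ones. Taf10, a subunit of TFIID, held 428, 422 and 381 against 586, 481 and 479. The list says nothing of methylation, which was not measured here.

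The 27 genes of other histone H3 lysine 4 methyltransferases, their partners and demethylases had a median of 0.046, with 3 higher and 1 lower without overlap. These counts stand beside 7.9% higher and 7.32% lower over all genes, and nothing is read from them. Smyd2, a lysine methyltransferase, held 1640, 1520 and 1606 against 1359, 1463 and 1386. Wdr5, the core scaffold of the MLL complexes, held 740, 741 and 658 against 886, 798 and 844. Of the genes next to Setd7 in the RefSeq order, 6 of 8 were tested, and their log2 differences were at most 0.12 in size. Cog6 was the 1 that separated, at 1614, 1583 and 1550 against 1457, 1475 and 1440, beside 7.9% of all genes that separated higher.

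Between the female libraries (Setd7 control 1 and 2 against Setd7 defeat 1) the median log2 difference of the interferon list was -1.01, and between the male libraries (Setd7 defeat 2 against Setd7 control 3 and 4) it was -1.12. For MHC class I the values were -0.61 and -0.84. The male values rest on Setd7 control 4: the other lower male, Setd7 control 3, had mean log2 levels of 6.40 (interferon) and 8.47 (MHC class I), under those of the high male, Setd7 defeat 2, at 6.80 and 8.65. For meningeal fibroblast genes they were -2.41 and 0.21, and for heat shock genes 0.021 and 0.13. Within the 4 control libraries the interferon median was -1.28, and between the 2 defeat libraries it was -0.55. The control value also rests on Setd7 control 4, at a mean log2 level of 9.40. Setd7 control 3, at 6.40, lay close to Setd7 control 1 and 2, at 6.35 and 6.38. These comparisons hold 1 library on at least 1 side, or sex and Setd7 level together, and have no replicate check.

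The difference between viruses was tested, but not independently of the ranking. Only the GFP libraries were outside the ranking. The Setd7 mean holds the same 6 libraries that split and ranked the genes, Setd7 control 4 among them. With limma, averaged over defeat and with a term for sex, 1 of 17755 genes passed an adjusted p of 0.05 as higher with the Setd7 virus (0.00563%), and 0% as lower. That gene was Setd7, which the virus carried and the split used, at 2.81 ± 0.30 on the log2 scale (SE, adjusted p = 0.00861). At an unadjusted p under 0.05 there were 657 higher and 608 lower. Without Setd7 defeat 2 the Setd7 value had adjusted p = 0.0657, and 3 other genes passed. Without GFP control 1, 2 genes passed. edgeR called 1 gene and DESeq2 7, all higher.

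None of the 41 interferon genes passed in limma, with a median log2 change of 0.45 and a smallest adjusted p of 0.713, beside a median of 0.0032 over all genes. Irf9 changed by 0.45 ± 0.26 (SE, adjusted p = 0.740 by limma), and Igtp by 1.23 ± 0.70 (adjusted p = 0.731). None of the 22 MHC class I genes passed, with a median of 0.43, 3 at an unadjusted p under 0.05 and a smallest adjusted p of 0.686. Of the 24 heat shock genes 0 passed, with a median of 0.12 and 11 higher at an unadjusted p under 0.05. Cryab changed by 0.33 ± 0.13 (adjusted p = 0.686). Over the 230 genes with r of -0.9 or less the median was 0.15, and over the 113 with 0.9 or more it was 0.028, with 0 passing in both.

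The relation with Setd7 was also tested in the 7 GFP libraries, which played no part in the ranking and vary in native Setd7 from 10887.9 to 14537.6. With limma, a term for defeat and all genes, 0% of 17754 slopes on log2 Setd7 passed, with 516 at an unadjusted p under 0.05. Without GFP defeat 1, the library with the least Setd7 of all 13, 4 genes passed as lower. The interferon genes had a median slope of 0.29 per log2 unit of Setd7, with 1 gene at an unadjusted p under 0.05. Correlations in the GFP libraries were computed without a term for defeat, and for the interferon genes 16 of 41 were below zero. Over the 230 genes with r of -0.9 or less in the Setd7 libraries, 120 had an r below zero in the GFP libraries. Over the 113 with r of 0.9 or more, 49 did. Across all genes it was 8859 of 17754. Dopamine neuron genes had a median slope of 3.47, with 17 of 28 at an unadjusted p under 0.05 and none passing adjustment. Without a term for defeat their median r was 0.235, with 4 of 28 below zero. All 28 were measured in the same 7 libraries, so the 17 are not separate results. The range of native Setd7 is narrow beside that of the virus, so these slopes limit what can be seen of it.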

How the data were processed

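The RNA came off RNeasy Micro columns and went into TruSeq RiboZero libraries, per the labels' protocols. The submitters' processing notes name Bowtie2, featureCounts, DESeq2 and the build GRCm39, without versions. What the authors deposited is a signal per gene, counts divided by size factors, for 26264 genes. All 341432 values were whole multiples, within 0.01, of 1 read of their library, so reads were recovered from the deposited signal for depth and for count tests.

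Setd7 (100000 or more) split the 6 Setd7 libraries. Genes with 10 normalized counts in at least 2 libraries were kept (17755; 8509 dropped). Differences and Pearson r used log2 of the value plus 1, a scale that understates changes of low genes. Setd7 was left out of counts. limma 3.58.1 with a trend (R 4.3.3) gave the 2 tests, two-sided, with Benjamini-Hochberg adjustment over all genes. edgeR 4.0.16 and DESeq2 1.42.0 were alternatives on recovered reads. The differences, the correlations and the 2 limma tests were tried on simulated data. The promoter search, the flags and the alternatives in processing were not. Replicates of a group correlated at 0.971 to 0.984, and none agreed within sampling noise.

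Named genes had a mean of 30 or more in the Setd7 libraries, without predicted, RIKEN, Xist and Y-linked genes: the 10 highest and 10 lowest r, the 10 largest differences each way among genes that separated, and up to 4 of largest difference per list. Further list members shown were chosen after their values were seen. The split, members and lists were chosen with earlier results of these data known. Promoters came from RefSeq on GRCm38.p6, matched by name, since no sequence of the build of the table was used.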

Additional observations from a re-analysis of the deposited data

Results flagged for a closer look

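The spread within each group of 4 libraries was examined for the means of 33 gene lists and the named genes, 148 group values in all. A value was set apart when the gap of the highest or lowest library to its neighbour took most of the range of its group. Set apart were 13, of which 6 at Setd7 control 4. Chance sets apart about 1 in 20 independent groups. That rate does not apply here, since the named genes were picked on the Setd7 libraries and some lists share members.

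Setd7 control 4 was high for interferon response, with the gap at 0.985 of the range, MHC class I (0.974), MHC class II (0.860), lymphocytes (0.873) and Ifi209 (0.899), and low for Mterf1b (0.881). Setd7 control 1 was high for oxidative phosphorylation genes (0.866). GFP defeat 3 was high for interferon response (0.874). GFP defeat 1 was low for microglia (0.889) and Fnta (0.850) and high for blood-derived myeloid cells (0.886). GFP defeat 4 was high for thalamic genes (0.877) and for the SETD7 substrates (0.847).

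The difference between high and lower Setd7 went in opposite ways in the 2 sexes for 2 list means, with every library of a sex on the same side, and this was not tested. For meningeal fibroblasts it was -2.568 on the log2 scale in females and 0.170 in males. For endothelial and mural cells it was -0.547 and 0.043. In both lists Setd7 defeat 1, the 1 female library below the threshold, was highest.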

How the results depend on the processing

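No paired analysis was possible because the labels carry animal numbers and no replicate numbers. Among the results a comparison rests on, pseudocounts of 0.5 and 5, TMM factors, scaling to total reads without Setd7, sex or defeat as a term, and filters gave counts within 1.5 times and medians within 1 SD, except as follows. Genes apart and 1.5-fold higher numbered 211 without a filter and 46 (with 133 lower) at a mean of 30 or more. Genes 1.5-fold higher numbered 259 at a pseudocount of 5. Genes at r of -0.9 or less numbered 152 with Spearman rho, 153 with linear Setd7, 490 with sex removed and 392 with defeat removed, and those at 0.9 or more 313 and 270 with sex and defeat removed. Leaving out 1 library gave 223 to 285 genes apart and higher, 494 to 813 lower, 264 to 356 at r of 0.9 or more and 335 to 634 at -0.9 or less, by construction of fewer libraries. It gave medians of -1.73 to -0.44 for interferon response, -1.06 to -0.29 for MHC class I and 0.10 to 0.14 for heat shock. The virus comparison called 1 to 3 genes, and 7 with DESeq2, and the slope in GFP libraries 0 to 4. The cause was not tested. Meningeal fibroblasts ranged from -1.227 to 0.203, turning sign without Setd7 defeat 1. Without Setd7 control 4 and Setd7 defeat 1 together, a choice made after seeing the data, 796 genes were apart and higher and 1213 lower, and medians were -0.0048 (interferon response), 0.052 (MHC class I), 0.58 (MHC class II), 0.165 (complement and chemokines) and 0.228 (meningeal fibroblasts). Of 923 other values 38, from 18 list medians, took the opposite sign: 4 from a value past 1.5-fold, all named above, and 34 from a smaller one. Depth was 31.2 to 48.4 mega-reads, and genes of a few reads, such as Cxcl9, carry the counting error of that depth.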

Other observations

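Complement and chemokine genes had a median log2 difference of -0.65 over 20 tested members, and 14 were highest in Setd7 control 4. None of the 20 separated the sets, beside 7.9% of all genes higher and 7.32% lower. The median was -0.33 without Setd7 control 4 and -1.25 without Setd7 control 3. C4b, a complement component made by glia, held 1124, 1687 and 1664 in the high libraries and 3332, 1288 and 12784.5 in the lower ones, and GFP libraries spanned 1136 to 2268. Reactive microglia genes had a median of -0.40 over 23 members, -0.014 without Setd7 control 4 and -0.93 without Setd7 control 3. Clec7a, a receptor of activated microglia, differed by -3.00, the largest of them.

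Glucocorticoid response genes had a median of 0.15 over 16 members, of which 14 were above zero. Plin4 and Mt1 were the 2 that separated, beside 7.9% of all genes that separated higher. The median was 0.064 without Setd7 control 2 and 0.099 without Setd7 control 4. In Setd7 control 2, 10 of the 16 lay above all 7 GFP libraries (11.8% of all genes), and in Setd7 control 4, 0 did (12%). Ribosomal protein genes had a median of -0.13 over 43 members, with 9 separating, all lower in the high libraries (7.32% of all genes). Atf3, a stress-induced transcription factor in the endoplasmic reticulum stress list, separated at a log2 difference of -1.42, while the median of its list was 0.045. Of 12 choroid plexus genes 11 were tested, and Folr1, a folate receptor, separated at low levels, with at least 4.37 in each high library and 1.02 to 4.31 in the lower ones. The medians of the p53 target and circadian clock lists were -0.010 and 0.0041.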
